A study of Mus musculus with 7 samples.

Results

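The genes described here are the histone genes of the mouse, the genes for the proteins around which DNA is wound. They were chosen by symbol from the protein-coding genes that RefSeq places on GRCm38.p6 (mm10): H1f followed by a digit, or a symbol starting with H2a, H2b, H3c, H3f, H4b, H4c, H4f or Hist and a digit. Genes of the histocompatibility complex, whose mouse symbols start with H2-, were left out. The rule found 103 genes among 21887 protein-coding genes on the placed chromosomes. Each was set against a list of 1437 lamin-associated domains (LADs), parts of chromosomes in contact with the lamina, a meshwork of proteins that lines the inside of the nuclear envelope. By its name the list holds merged LADs of wild-type cells, and it is taken here to come from the CUT&RUN libraries for Lamin B1, a lamina protein, in mouse embryonic fibroblasts (iMEF). In CUT&RUN, an antibody brings a nuclease to its target and the DNA cut around it is sequenced. Lamin B1 had 2 libraries, described as biological replicates in the series design, from cell lines derived independently within a single mouse colony. IgG (2 libraries), H3K9me2 (2 libraries) and H3K14ac (1 library) were also profiled and were not analysed here. Wild type and merged appear only in the name of the list, and no other genotype, treatment or age is given for these cells. The list carries positions and no signal, so the depth behind a domain is unknown and no value below has a replicate error or a test. No expression was measured in this list, so the fibroblast label could not be checked against marker genes.

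Nucleosomes consist of H2A, H2B, H3 and H4, and linker histones of the H1 type bind the DNA between them. Most genes for these proteins are replication-dependent: they are small, lack introns, lie in clusters, are transcribed in S phase when new DNA must be packaged, and end in a stem-loop in place of a poly(A) tail. They are transcribed in a nuclear body, the histone locus body, that forms at the clusters. Replacement variants such as H3.3 and H2A.Z are made throughout the cell cycle from single genes. Germline variants act in spermatogenesis or in the oocyte, and the H2A.L and H2A.B variants are known from male germ cells. LADs are in general poor in active genes.

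By these roles, 64 members were replication-dependent genes, 8 were replacement variants and 30 were germline variants. H3f3c, a further gene of the H3.3 type, was put in no class. The classes follow textbook knowledge of the genes and do not use the LAD list. They were, however, chosen with earlier results of these data known. A member was called inside a LAD when the midpoint of the gene lay in one. H2az2 and H3f3b on chromosome 11 lay before the first and after the last LAD of their chromosome, which left 101 members between the first and the last LAD.

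Inside LADs there were 4 of these 101 histone genes, or 3.96%, against a background of 24.6% of all 21130 protein-coding genes placed in the same way. The 4 were H2al1o, H2al1n, H2ab2 and H2ab1. They encode germline H2A variants, H2al1o and H2al1n of the H2A.L type and H2ab1 and H2ab2 of the H2A.B type, and they lie on X. No replication-dependent gene (0 of 64) and no replacement variant (0 of the 6 between the first and the last LAD of a chromosome) lay in a LAD. By chromosome, the count was 0 of 79 autosomal members, where the background was 23.7%, 4 of 20 members on X (20%), where it was 36.0%, and 0 of 2 on Y, where it was 55.7%. The germline class had 4 of 20 on X, 0 of 2 on Y and 0 of 8 on autosomes, numbers too small to read a difference between chromosomes from. The 8 autosomal genes include the testis genes H2ac1, H2bc1, H1f6 and H1f7 and the oocyte linker histone gene H1f8. By protein type over all 103 members, with H2az2 and H3f3b counted as outside, the 4 were among 44 genes with H2a symbols, while 10 H1f, 19 H2b, 16 H3 and 14 H4 symbols had no gene in a LAD. Neighbouring genes share their position, so these counts do not come from independent genes: members at most 100 kb apart formed 30 loci, of which 20 had a single member and 4 held a gene in a LAD.

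The promoters of the 4 genes in LADs are printed first, since they are the exceptions among the members. Each is the 300 bases of RefSeq sequence (GRCm38.p6) from 250 before to 50 after the annotated start, 5′ to 3′ on the strand of the gene. Capitals mark exact matches, on either strand, to 3 words of histone promoters: TATAAA (the TATA box), CCAAT (the CCAAT box) and ATTTGCAT (the octamer, known from H2B promoters).
H2al1o (chrX:9572342-9572641, minus strand): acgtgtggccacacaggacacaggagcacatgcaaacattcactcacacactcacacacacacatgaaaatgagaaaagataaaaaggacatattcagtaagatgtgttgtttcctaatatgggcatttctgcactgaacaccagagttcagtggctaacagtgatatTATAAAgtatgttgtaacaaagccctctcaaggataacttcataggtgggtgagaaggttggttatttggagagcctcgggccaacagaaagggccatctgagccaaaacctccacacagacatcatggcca
H2al1n (chrX:14210898-14211197, plus strand): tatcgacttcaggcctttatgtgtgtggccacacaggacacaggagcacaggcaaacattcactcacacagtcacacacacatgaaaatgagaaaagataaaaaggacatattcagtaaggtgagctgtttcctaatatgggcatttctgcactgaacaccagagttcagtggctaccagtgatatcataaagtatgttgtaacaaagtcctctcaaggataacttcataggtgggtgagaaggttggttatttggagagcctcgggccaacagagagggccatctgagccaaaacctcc
H2ab2 (chrX:116680928-116681227, plus strand): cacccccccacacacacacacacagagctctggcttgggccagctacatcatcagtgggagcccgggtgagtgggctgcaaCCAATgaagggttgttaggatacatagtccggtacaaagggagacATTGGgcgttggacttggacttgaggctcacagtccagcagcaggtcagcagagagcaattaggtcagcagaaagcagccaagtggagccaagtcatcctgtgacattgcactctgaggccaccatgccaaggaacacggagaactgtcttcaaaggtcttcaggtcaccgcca
H2ab1 (chrX:117014507-117014806, plus strand): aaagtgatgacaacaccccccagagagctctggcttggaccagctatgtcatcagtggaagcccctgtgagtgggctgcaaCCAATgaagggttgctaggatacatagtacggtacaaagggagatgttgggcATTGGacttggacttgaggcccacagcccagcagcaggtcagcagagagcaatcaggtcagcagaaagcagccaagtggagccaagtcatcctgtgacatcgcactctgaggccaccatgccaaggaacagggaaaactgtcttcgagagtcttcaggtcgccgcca

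For comparison, close relatives outside LADs are H2ab3, in a gap between LADs, and H2al1k, near a LAD border.
H2ab3 (chrX:120313177-120313476, minus strand): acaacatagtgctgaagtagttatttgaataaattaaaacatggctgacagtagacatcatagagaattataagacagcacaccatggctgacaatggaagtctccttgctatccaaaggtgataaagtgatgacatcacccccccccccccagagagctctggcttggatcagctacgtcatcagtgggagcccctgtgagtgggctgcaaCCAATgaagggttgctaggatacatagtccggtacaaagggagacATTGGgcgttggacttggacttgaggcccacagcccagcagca
H2al1k (chrX:9350349-9350648, plus strand): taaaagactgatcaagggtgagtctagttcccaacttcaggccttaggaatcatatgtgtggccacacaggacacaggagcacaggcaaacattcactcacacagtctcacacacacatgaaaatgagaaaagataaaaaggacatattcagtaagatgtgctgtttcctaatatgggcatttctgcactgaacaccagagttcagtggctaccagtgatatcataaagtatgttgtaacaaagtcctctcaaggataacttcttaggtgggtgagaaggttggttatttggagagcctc

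The third set is the promoter of a pair of replication-dependent genes close to a LAD, H2ac12 and H2bc12, which point away from each other. Their windows cover nearly the same DNA on opposite strands.
H2ac12 (chr13:22035594-22035893, minus strand): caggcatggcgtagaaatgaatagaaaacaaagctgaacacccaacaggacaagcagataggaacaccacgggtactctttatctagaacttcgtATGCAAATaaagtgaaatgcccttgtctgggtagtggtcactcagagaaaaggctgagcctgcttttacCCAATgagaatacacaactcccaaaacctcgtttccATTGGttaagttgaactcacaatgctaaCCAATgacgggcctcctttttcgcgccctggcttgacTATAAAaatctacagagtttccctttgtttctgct
H2bc12 (chr13:22035571-22035870, plus strand): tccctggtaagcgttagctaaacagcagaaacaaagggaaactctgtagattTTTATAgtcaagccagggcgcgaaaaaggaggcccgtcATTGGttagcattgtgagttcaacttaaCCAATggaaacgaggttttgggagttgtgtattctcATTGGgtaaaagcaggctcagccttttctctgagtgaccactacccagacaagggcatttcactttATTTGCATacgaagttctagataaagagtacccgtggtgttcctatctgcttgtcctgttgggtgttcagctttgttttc

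Chromosome 13 carries the largest group of histone genes, and a LAD separates its main parts. With members up to 100 kb apart joined, 54 genes fell into 4 neighbouring loci, and 0 of the 55 members on the chromosome lay in a LAD, where the background of the chromosome was 23.9%. The first locus spanned 122 kb (chr13:21715711-21837530), from H2bc13 to H4bc24, and held 18 genes: 1 of H1, 5 of H2A, 6 of H2B, 2 of H3 and 4 of H4. H4bc24 is counted with H2B here because the table gives its older symbol as Hist1h2br. The second locus, H2ac12 to H2bc11 (chr13:22035122-22043658), spanned 8.54 kb and held 5 genes. The third, H4c8 to H1f1 (chr13:23531044-23764412), spanned 233 kb and held 29 genes with members of all 5 types. Last came the testis pair H2bc1 and H2ac1 (chr13:23933725-23934913), which encode the testis forms of H2B and H2A. The spans of all 4 loci contained 0 bases of LAD.

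The DNA between the second and the third locus was different. Of the 1487 kb between H2bc11 and H4c8, 79.0% lay in a single LAD of 1175 kb (chr13:22073272-23248268). That LAD held 36 protein-coding genes, of which 35 were Vmn1r genes, for vomeronasal receptors of sensory neurons, and none was a histone gene. Vmn1r223 lay beyond its end, outside LADs. On the other side, a LAD of 67.5 kb (chr13:21563274-21630773) before the first locus held 2 protein-coding genes, the olfactory receptor genes Olfr1364 and Olfr1362. The interval between these LADs, 442 kb long, held 23 histone genes and 7 other protein-coding genes, or 67.8 genes per Mb. Of the 692 gaps of at least 250 kb on all chromosomes it ranked 1 by protein-coding genes per Mb, and their median was 8.51. The 23 histone genes, for which the interval is described here, are most of that number, and its rank without them was not computed. The other 7 genes in this interval included 4 olfactory receptor genes, which lay outside LADs next to H2bc13, and Zfp184, Pom121l2 and Prss16 between both histone loci. Transfer RNA genes followed the same division: 34 lay in this interval, 45 in the gap after the large LAD, which also holds the third and the fourth locus, and 0 in the LAD with the vomeronasal receptors. The RefSeq table places 408 transfer RNA genes in all, of which 42 lay in LADs.

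**Figure D1:**
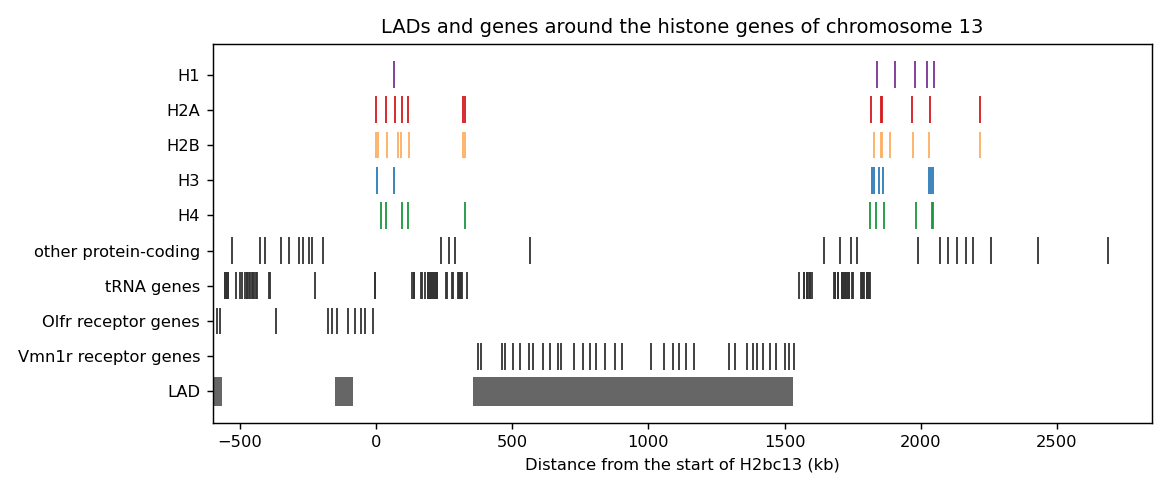
LADs (grey bars) and genes (1 tick each) on chromosome 13, with the distance from the start of H2bc13 in kb on the x axis and 1 row for each histone type or gene group. The LAD of 1175 kb covers 35 of the 36 Vmn1r ticks, with Vmn1r223 beyond its end, and the histone ticks of the loci with 18, 5, 29 and 2 genes stand on both sides of it.

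Distances to the nearest LAD border differed between these loci. In the second locus, midpoints lay from 29.8 kb (H2bc11, an H2B gene) to 37.9 kb (H2ac12, an H2A gene) from the LAD of receptor genes. In the first locus they ran from 85.2 kb at H2bc13 to 205 kb at H4bc24. In the third, H4c8 was the nearest at 283 kb and H1f1, for the linker histone H1.1, the farthest at 516 kb. H2bc1 lay 686 kb from the border. The 5 genes of the second locus were thus closer to a LAD than any other gene of the 4 loci. Borders follow a grid of 2.5 kb, which is small against 29.8 kb. Lengthening every LAD by 2.5 kb at both ends could put no further member inside, since the nearest outside lay 26.0 kb away.

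The share of LAD sequence in the wider surroundings differed between these loci. Within 500 kb on either side of the midpoint, LADs covered a median of 27.6% around the 18 genes of the first locus (21.0% to 33.0%) and of 53.5% around the 5 of the second (53.0% to 53.8%). For the 29 genes of the third locus the median was 14.6% (0% to 21.7%), and for the testis pair it was 0%. Over all protein-coding genes the median was 8.75% and the upper quartile 58.5%, so the medians of the first 3 loci lay between these values.

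The cluster on chromosome 3 lay far from LADs. Its 10 genes (chr3:96219885-96270192) are 4 of H2A, 2 of H2B, 3 of H3 and 1 of H4 and span 50.3 kb. H2ac21 was 1907 kb from the nearest border and H2bc18, an H2B gene, 1957 kb. The gap around them measured 4.26 Mb, with 103 other protein-coding genes and 27 transfer RNA genes, and LADs covered 0% within 500 kb of each of the 10 genes. A smaller cluster on chromosome 11 (chr11:58948911-58962273) consists of H2bu2, H2aw and H3f4, an H2B, an H2A and an H3 gene, the last known as H3t from testis. Their distances were 1526, 1532 and 1539 kb, in a gap of 6.01 Mb. In the first 2 loci of chromosome 13, in contrast, no gene was more than 205 kb from a border.

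H4f16 and H2aj on chromosome 6 lay about as close to a LAD as the second locus of chromosome 13, whose genes ranged from 29.8 to 37.9 kb. H4f16, an H4 gene outside the large clusters, lay 35.0 kb from a LAD of 145 kb (chr6:136624215-136769214), and H2aj, a replacement variant of H2A, lay 39.9 kb from it. The gap with both genes was 215 kb long and held 8 other protein-coding genes, among them Wbp11 and Mgp. LADs covered 59.3% of the sequence within 500 kb of either gene, more than around any other autosomal member.

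The other replacement variants had positions from 175 kb to 6533 kb. H2az1, for H2A.Z, lay 175 kb from a LAD of 720 kb on chromosome 3, with 32.5% LAD sequence within 500 kb. H3f3a, for histone H3.3, lay 2729 kb from a border, and H3f3b, the second gene of the same protein, 1404 kb after the last LAD of chromosome 11. H2ax, whose product is phosphorylated at DNA breaks, lay 2201 kb away. The genes of the linker variants H1f10 and H1f0 were the farthest of all members, at 4973 and 6533 kb. H2az2, for the second form of H2A.Z, lay 455 kb before the first LAD of its chromosome. H3f3c lay 2776 kb from a border. For the 6 replacement variants between the first and last LAD of their chromosome the median distance was 2465 kb.

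Of the autosomal germline genes outside the clusters, H2al2a on chromosome 2, another gene of the H2A.L type, was nearest to a LAD, at 382 kb. H1f8, for the oocyte linker histone, lay at 539 kb, H2bl1, for an H2B variant of testis, at 1189 kb, and H1f7, for a linker histone of spermatids, at 2016 kb.

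Across the 97 members outside LADs, the distance to a border ran from 26.0 to 6533 kb with a median of 354 kb, below the 760 kb of the 15923 protein-coding genes outside LADs. Chromosome 13 weighs most in this median: its 54 neighbouring genes had a median of 296 kb and the other 43 members one of 1675 kb, of which 10 form a single array on X. Counting each of the 24 loci outside LADs once, by its nearest member, gave 461 kb. This takes the shortest distance of a locus, unlike the 760 kb, which is over single genes. Within 50 kb of a border lay 9 of the 97 members (9.28%), against 6.27% of all protein-coding genes outside LADs, and these 9 belong to 4 loci. At least 1000 kb away lay 30 members (30.9%), against 41.9%. In gaps of at least 1 Mb lay 68.0% of the members and 84.3% of all protein-coding genes in gaps. The shares are counts of genes and no test was made, because the members of a locus are not independent.

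**Figure D2:**
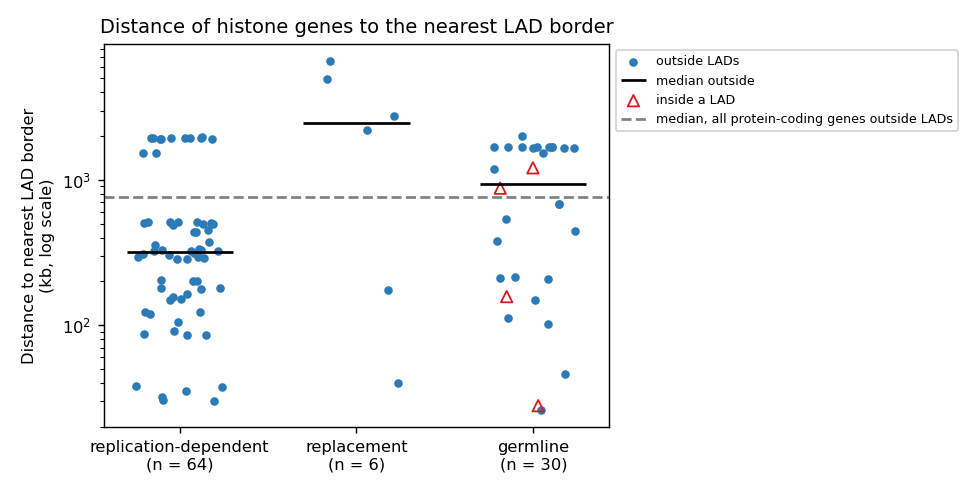
Distance of each histone gene to the nearest LAD border in kb (y axis, log scale), by class, for the members between the first and last LAD of a chromosome; H3f3c is not drawn. Points are genes outside LADs, triangles the 4 genes inside, black lines medians of the points (318, 2465 and 938 kb), and the dashed line marks 760 kb for all protein-coding genes outside LADs.

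On X, 20 histone variant genes were placed in 2 regions and at 1 further gene, H2bfm. In the first region, 14 genes of the H2al1 type, H2ap and H2al3 lie along 4.93 Mb. H2al1o (chrX:9571960-9572391) lay inside a LAD of 92.5 kb (chrX:9544300-9636799) and was the single protein-coding gene with its midpoint there. Its midpoint was 27.9 kb from the border. H2al1n (chrX:14211148-14211657) lay in a LAD of 2332 kb (chrX:14054286-16386778), 157 kb from the border, and was also the single protein-coding gene there. The next genes of the same type were outside: H2al1k was 45.9 kb and H2al1m 113 kb from a LAD of 95.0 kb, in a gap of 485 kb.

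The largest set of H2al1 genes stood apart from LADs. H2al1a to H2al1j form a tandem array of 10 genes on the plus strand (chrX:11299257-11328151), with starts 3098 to 3224 bp apart. They lay 1663 to 1691 kb from the nearest border, in a gap of 4.42 Mb that also held H2ap and H2al3. These lay 210 and 213 kb from the LAD with H2al1o. LADs covered 0% within 500 kb of each gene of the array, 18.8% around H2al1o and 65.7% around H2al1n. Within 100 kb of H2al1o they covered 56.1%.

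The second region of X has the 3 genes of the H2A.B type, a short variant that is known to make nucleosomes less compact. H2ab2 (chrX:116681178-116681525) and H2ab1 (chrX:117014757-117015104) lay in the same LAD of 4602 kb (chrX:113288972-117891456), 1210 and 877 kb from its border. With 8 protein-coding genes, this LAD had 1.74 per Mb. The other 6 were Dach2, Klhl4, Ube2dnl1, Ube2dnl2, Gm7429 and Cpxcr1. H2ab3 (chrX:120312582-120313226) was outside, in a gap of 90.0 kb between LADs of 335 and 1080 kb, at 26.0 kb from the border, the shortest distance of all members outside LADs. It was the single protein-coding gene with its midpoint in that gap. LADs covered 100% within 500 kb of H2ab1 and H2ab2 and 80.9% of it around H2ab3. The shortest gap of the whole list was 52.5 kb, so the list holds no gap on the scale of a single histone gene, whose median length was 501 bp over the 103 members.

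**Figure D3:**
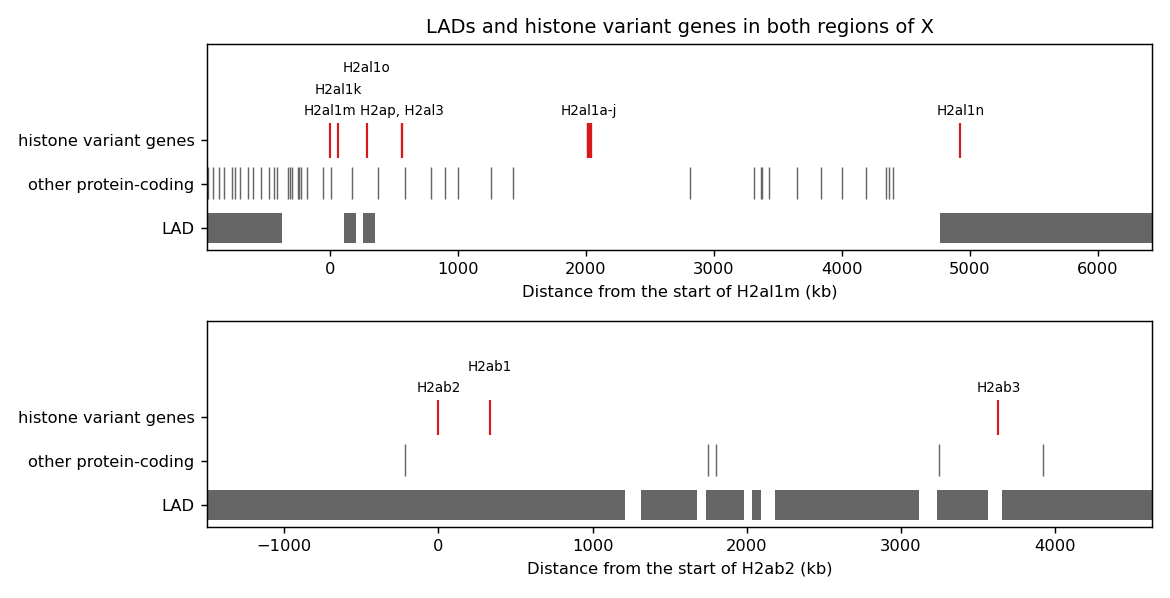
LADs (grey bars), histone variant genes (red ticks) and other protein-coding genes (grey ticks) in both regions of X, with the distance in kb from the start of H2al1m (top) and H2ab2 (bottom). H2al1o and H2al1n stand over LADs and H2al1a to H2al1j in the gap of 4.42 Mb, and H2ab1 and H2ab2 stand over the LAD of 4602 kb, with H2ab3 in a gap of 90.0 kb. The LADs at the right edge of both panels and at the left edge of the bottom one go on beyond the part drawn.

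H2bfm, an H2B variant gene at the distal part of X, lay 206 kb from a LAD of 2042 kb, with 47.8% LAD sequence within 500 kb. The 2 members on Y, H2al2c and H2al2b, lay 102 and 149 kb from LADs in the same gap of 372 kb, with 37.1% and 24.9% LAD sequence within 500 kb. Outside LADs, germline genes of X and Y lay 26.0 to 213 kb from a border, apart from the 10 array genes at 1663 to 1691 kb. The 8 autosomal germline genes lay 382 to 2016 kb from one, so the ranges overlap once the array is counted.

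The surroundings of the members by distance show the same groups. At 500 kb to either side of the 54 genes of chromosome 13, 42.6% of positions lay in a LAD, against 33.2% and 34.6% before and after all protein-coding genes. At 250 kb before these genes it was 5.56% and at 250 kb after them 14.8%, with 16.7% at 150 kb before and 0% at the midpoint. The sides differed farther out: at 1000 kb the share was 100% before these genes and 42.6% after them. For the 25 other autosomal members the shares were 16% at 500 kb before and 8% after. For the 20 members on X they were 25% on both sides, with 20% at the midpoint. The 54 genes share the same neighbouring LADs, so their curve describes a single region.

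**Figure D4:**
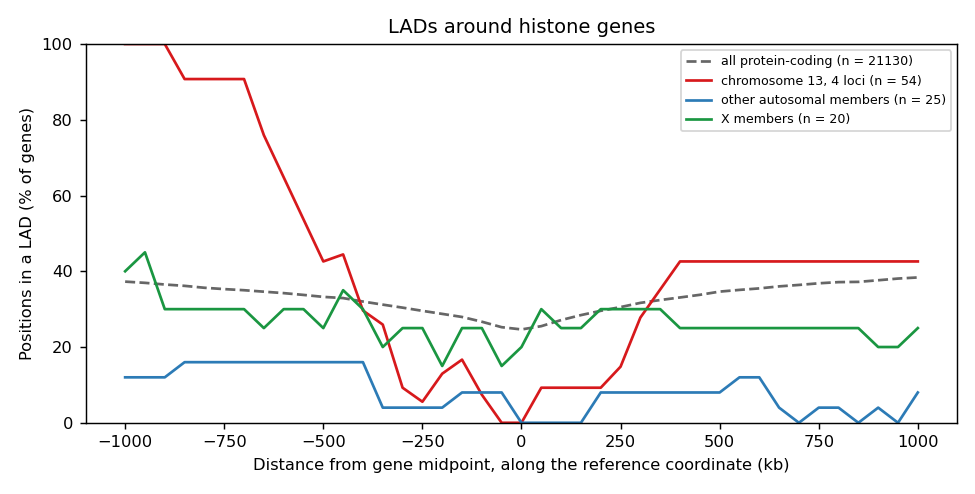
Share of positions inside a LAD (y axis, %) at each distance from the gene midpoint along the chromosome (x axis, kb), for the 54 genes of 4 loci on chromosome 13, 25 other autosomal members, 20 members on X and 21130 protein-coding genes (dashed). Lines of both autosomal groups meet 0% at the midpoint, and the line of chromosome 13 reaches 42.6% at 500 kb on either side.

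Promoters of the members were searched for 3 words, and the shares are given by class. The RefSeq promoter table had 98 promoters for 97 of the 103 members. CCAAT or its reverse complement was in 85% of 60 promoters of replication-dependent genes, in 71.4% of 7 of replacement variants and in 36.7% of 30 of germline genes. The share over all 32851 promoters of the same length was 37.4%. The 11 germline promoters with it belong to genes other than the 14 H2al1 copies, which are counted one by one. Among the replication-dependent genes, each of the 5 H1, 17 H2A, 15 H2B and 10 H3 promoters had it and 3 of 11 promoters with H4c symbols did. TATAAA was in 55% of promoters of replication-dependent genes, in 1 of 7 of replacement variants and in 16.7% of germline genes, against 13.6% of all promoters. ATTTGCAT was in 6 of 17 H2A and 6 of 15 H2B promoters of the replication-dependent class and in none of the 26 of H1, H3 and H4c. It was in 1 of 7 promoters of replacement variants, in 2 of 30 of germline genes and in 1.74% of all promoters. H4bc24 and H4f16 are in the class but in none of these groups by type. In the printed promoters of H2ac12 and H2bc12, matches to the 3 words occur without overlap. A match is a string of letters and not a bound site, and so short a word as CCAAT is frequent by itself.

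**Figure D5:**
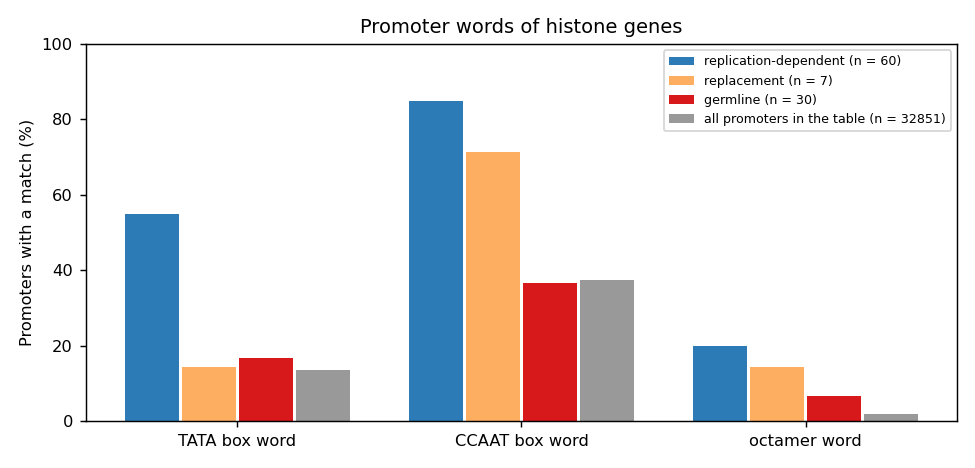
Share of promoters of 300 bases (y axis, %) with an exact match on either strand to the TATA box word, the CCAAT box word and the octamer word, for 60 promoters of replication-dependent, 7 of replacement and 30 of germline histone genes and for all 32851 promoters (grey). The replication-dependent bars stand at 55%, 85% and 20%.

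The 4 promoters of the members in LADs are among the 30 of the germline class, so the class values include them. TATAAA was in 1 of the 4 (H2al1o), CCAAT in 2 (H2ab1 and H2ab2) and ATTTGCAT in 0. Their GC content was 44.0% for H2al1o, 45.0% for H2al1n, 55.3% for H2ab2 and 54.7% for H2ab1, and the 30 germline promoters ranged from 39.7% to 55.7%. Median GC content was 45.0% in the germline class, 45.3% in replication-dependent genes and 71.3% in the 7 promoters of replacement variants, against 56.3% for protein-coding genes. The ratio of observed CpG dinucleotides to the number that base composition gives was 0.13 to 0.22 in the 4 and had a median of 0.14 in the germline class, 0.75 in replication-dependent genes and 0.98 in replacement variants. Germline promoters outside LADs reached 0.55 (H2ac1), and the median was 0.57 over the promoters of protein-coding genes and 0.38 over all promoters in the table. The germline class counts 14 H2al1 copies one by one.

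Copies of the same gene lay on both sides of the LAD borders. Windows were aligned over the part they share, since annotated starts differ between copies. Promoters of H2al1a to H2al1j were 96.3% to 100% identical in 45 pairs. The promoter of H2al1n, inside a LAD, was 95.9% to 98.3% identical to those 10, and that of H2al1o, inside a LAD, 94.7% to 96.1%. H2al1k, outside, had 92.9% to 97.5%. In the H2A.B group, H2ab1 and H2ab2 were 88.3% identical over 300 positions, and H2ab3, outside a LAD, was 91.5% identical to H2ab1 over 176 positions and 89.3% to H2ab2 over 169. How reads that match more than 1 copy were placed is not given in the sources used here, and their part in the calls on X was not tested.

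Replication-dependent H2A and H2B genes often share a promoter region. Among the 97 members with an annotated start, 10 pairs had starts that point away from each other at most 1000 bp apart, with distances of 164 to 281 bp. These 20 genes were 20.6% of the 97, against 7.47% of 17492 protein-coding genes. Of the pairs, 9 joined an H2a with an H2b symbol, and the tenth joined H2ac24 with H4bc24. The 10 pairs lay on chromosome 13 and outside LADs, 2 of them (H2ac12 with H2bc12, 178 bp apart, and H2ac11 with H2bc11, 249 bp apart) within 50 kb of the LAD of vomeronasal receptor genes. The last pair, H2bc1 with H2ac1, belongs to the germline class. The windows of such a pair overlap, so their word matches are partly the same letters.

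Genes that serve histones were examined from lists. Of 15 genes for histone gene expression and 3′ end processing, 0 lay in a LAD. They include Npat, a scaffold of the histone locus body, at 690 kb from a border, Casp8ap2, another part of that body, at 741 kb, and Slbp, which binds the stem-loop of histone messages, at 4454 kb. The nearest were Pou2f1, which encodes the octamer-binding factor Oct-1, at 111 kb, Cpsf2, of the cleavage complex, at 133 kb, and Lsm11, of the U7 particle that processes these messages, at 136 kb. Of 23 histone chaperones and transport factors, 0 lay in a LAD. The nearest were Asf1a, a chaperone of H3 and H4, at 47.2 kb, Ssrp1, a subunit of the FACT complex, at 70.0 kb, and Hira, a chaperone of H3.3, at 76.1 kb, while Daxx, another chaperone of H3.3, was at 2556 kb. LADs covered 80.8% within 500 kb of Asf1a. Among 8 further genes of the histone fold or histone type outside the symbol rule, 1 lay in a LAD: Cenpw on chromosome 10, whose product is a kinetochore protein with a histone fold, 17.3 kb from the border. Cenpa, the centromeric H3, lay 1479 kb from a border, and the macroH2A genes Macroh2a1 and Macroh2a2 lay 831 and 1839 kb away. The 24.6% given above is over genes between the first and the last LAD of a chromosome, whereas these counts also take in Nap1l4, a chaperone gene, and Cenpx, of the third list, which lay beyond them.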

How the data were processed

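The authors deposited 1 list of LADs, with start and end positions and a score of 0 in every line. That it rests on both Lamin B1 libraries in iMEF cells is inferred from the words LAD and merged in its name. The submitters' processing notes name Bowtie2 and the build mm10. The domain caller, its threshold and the use of IgG or spike-in are not given in the sources used here. Per the labels' protocols, 500000 cells were used per reaction, with the Lamin B1 antibody at 1 to 100 and digestion for 2 hours. Every LAD (100%) was a multiple of 2.5 kb long, give or take 125 bp.

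Positions were counted from 1 and compared with the RefSeq gene and promoter tables of GRCm38.p6 in Python 3.11.15 with pandas 2.3.3; promoters were aligned with Biopython 1.88 with free end gaps. Gene midpoints decided membership, since a strand is given only for genes in the promoter table. Percentages of genes use those between the first and last LAD of a chromosome. Members at most 100 kb apart formed a locus, and 3 or more a cluster. The position functions were checked at 2000 positions on the real list, with 0 mismatches. The symbol rule, the gene lists and the classes were chosen with earlier results of these data known. Named were members inside LADs, the first, last, nearest and farthest of each cluster, and members outside clusters; a few others were named after their values were seen. Protein sequences were planned and are not analysed here. No test was made, since the list has 1 merged value per position and neighbouring genes are not independent. Per-replicate values were not analysed here.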

Additional observations from a re-analysis of the deposited data

How the results depend on the processing

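Of 30 values recomputed with other settings, 22 stayed within 1.5 times the value reported (for the background share, within its 95% binomial interval) and 8 moved. That interval takes genes as independent, which neighbouring genes are not, so for the background share it is a narrow label and not a test. With LADs separated by at most 250 kb joined, the count of 4 histone genes in LADs moved to 7. Joining adds H2ab3, H2aj and H4f16 by construction. H4f16 is a replication-dependent gene and H2aj a replacement variant, both autosomal, so neither class nor the autosomes then stayed without a gene in a LAD. The count was 3 with LADs of at least 100 kb or 500 kb, which drop the LAD of 92.5 kb with H2al1o. The count stayed at 4, with the same genes, by the start of transcription, by the whole gene and by any overlap. It also stayed at 4 with borders moved by 2.5 kb. These settings had almost no room to change it. The nearest member outside lay 26.0 kb from a border, the shallowest inside 27.9 kb, and the median gene length was 501 bp. The background of 24.6% became 22.5% for whole genes, 26.0% for any overlap, 21.5% with LADs of at least 500 kb and 28.3% with joining. The median LAD share around members, 17.2% within 500 kb, was 0% within 100 kb and 31.3% within 1000 kb, since the window itself changes. The octamer word was in 15 member promoters on either strand and in 7 on the sense strand, where 0.877% of all promoters had it. CCAAT was in 67 member promoters on either strand and in 62 on the sense strand, and TATAAA in 39 and 34. Their shares over all promoters also depend on the strand: 37.4% fell to 21.1% for CCAAT and 13.6% to 8.32% for TATAAA. The median distance of 354 kb ran from 327 to 440 kb, and clusters of 3 or more numbered 6 or 7. No paired analysis was possible because the list is merged and has no value per replicate, and no replicate could be left out. The depth is unknown, so how many short LADs or gaps a deeper library would show was not tested.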

Other observations

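Histone pseudogenes picked by the same symbol rule also lay outside LADs. There were 8 of them on the placed chromosomes, and 0 lay in a LAD, against 50.4% of 10429 pseudogenes of the table. H2ac14 (90.8 kb from a border) and H2ac5-ps (498 kb) lie within the clusters of chromosome 13 and H2bu1-ps (1531 kb) within that of chromosome 11, so these 3 share the position of the clusters. The other 5 stand apart from the clusters: H2af-ps2 at 293 kb, H3f3a-ps2 at 445 kb, H1f11-ps at 828 kb, H3f3a-ps1 on X at 1618 kb and H2af-ps1 at 2997 kb. Many pseudogenes have symbols that do not name their parent gene, and these were not searched.

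Some gene models of histone genes are long. Of the 103 members, 10 span 2.5 kb or more, among them H2bc6 with 37455 bp and H2bc22 with 14079 bp, so their midpoints lie away from the annotated start. Neither had a base in a LAD.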
